A study of Ovis aries with 6 samples.

Results

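Genes that break down, bind or carry lipids were followed across 6 RNA sequencing libraries of cultured sheep mitral valve endothelial cells, the cells that cover the leaflets of the mitral valve. The 10 genes were named by symbol and chosen by a list of lipases, lipoprotein receptors and fatty acid carriers that was drawn up with earlier results of these libraries in view. Their values are therefore given as a description, and the fits below support no claim about how the list was chosen. Of the 10 genes, 8 had a row among the 18865 rows of the deposited raw count table, 7 had a count in at least 1 library, and the same 7 passed the filter on low counts, as did 14326 rows of the table. CD36 and GPIHBP1 were not analysed here.

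The cells had been kept for 24 h with sheep plasma, drawn either following a myocardial infarction (post-MI plasma, 3 libraries) or in naive animals (naive plasma, 3 libraries). Both groups were the same labelled cell type, with no genotype or further agent in the labels. The labels do not say if the replicates differ in culture, cell donor or plasma donor. A p-value here therefore reflects no more than library-to-library spread, part or all of which may be technical.

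Endothelium handles blood lipids at its surface. Lipoprotein lipase (LPL) and endothelial lipase (LIPG) cut triglycerides and phospholipids of lipoproteins while bound to the vessel wall, GPIHBP1 carries LPL there, and ANGPTL4 inhibits LPL. Released fatty acids and whole particles then enter through CD36, SCARB1, OLR1 and VLDLR, and FABP4 and FABP5 bind fatty acids inside the cell. FABP4, CD36 and GPIHBP1 are best known from capillary endothelium, while the cells here come from a valve surface.

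Total counts per library lay between 14858472 and 20672794. The level of a gene is given in CPM, the count relative to the TMM-scaled library size, and is compared between libraries and never between genes, because transcripts differ in length. Of 13 endothelial markers, 12 were above 1 CPM in every library, and their summed level was 3526 to 4857 CPM with post-MI plasma and 3336 to 3780 CPM with naive plasma. Markers of smooth muscle, pericytes and valve interstitial cells were abundant too, with 10 of 11 above 1 CPM in every library and sums of 15165 to 18070 CPM with post-MI plasma and 6579 to 18903 CPM with naive plasma. Naive replicate 1 stood apart: it held the lowest of those sums. It was the highest library for 28.8% and the lowest for 29.2% of all genes tested, and it was more than 2-fold above the next library for 2.07% of them. Post-MI replicate 3 stood apart in MX2, an interferon-induced gene, with 328 CPM against 0.705 to 8.69 CPM in the other 5 libraries.

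LIPG was the only one of the 7 whose groups did not overlap, and it was lower with post-MI plasma. Of all genes tested, 7.82% did not overlap in that direction and 8.32% in the other. OLR1 and VLDLR were more than 4-fold higher in naive replicate 1 than in any other library, and ANGPTL4 was 1.86-fold higher there. FABP4 and FABP5 were highest in post-MI replicates 1 and 2. No member passed the test between the groups, and no fold change below should be taken as a call.

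**Figure D1:**
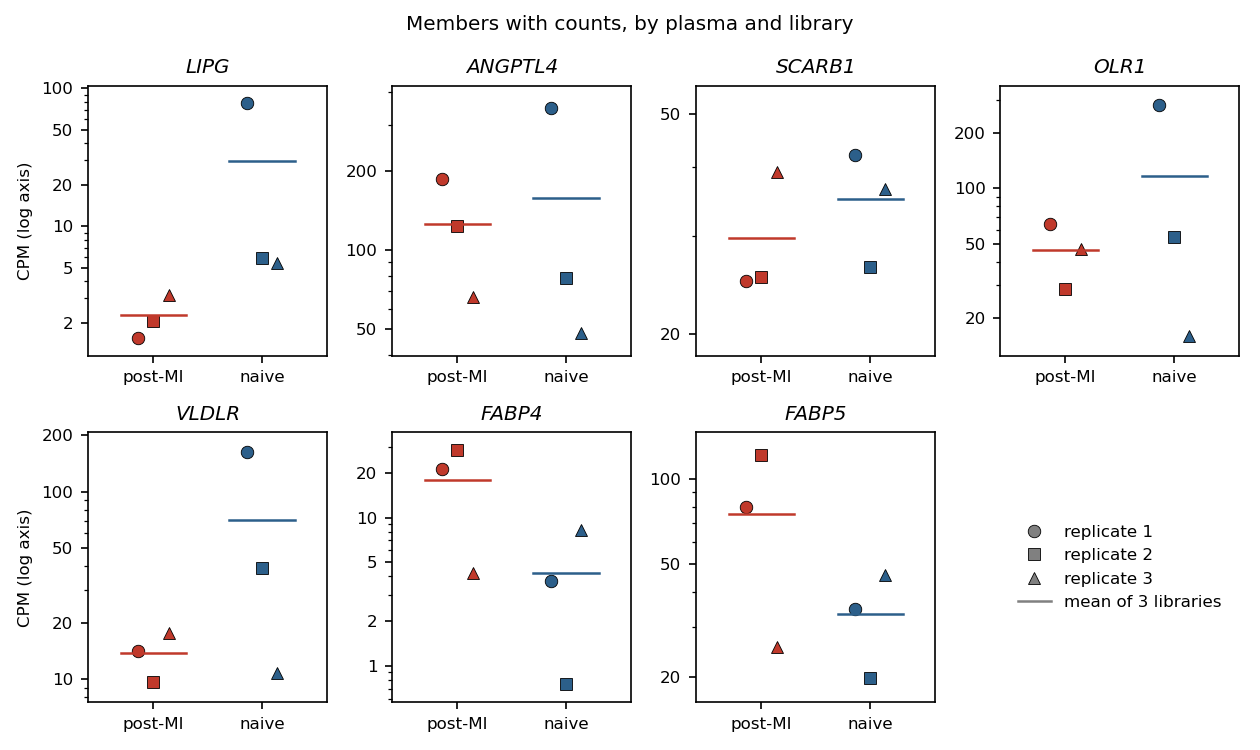
Level of each member with counts, in CPM on a log axis (a separate scale in each panel), in post-MI libraries (red, left) and naive libraries (blue, right), with symbols for replicates 1 to 3 and a line at the mean of the 3 libraries. LIPG is the one panel without overlap between the groups, lower with post-MI plasma, as for 7.82% of all genes tested. Naive replicate 1 is the top point for LIPG, ANGPTL4, SCARB1, OLR1 and VLDLR, and was the highest library for 28.8% of all genes tested.

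Between the groups, edgeR's quasi-likelihood test called 0 of the 7 members with Benjamini-Hochberg adjustment over all genes, against a background of 0% of 14326 genes. At an unadjusted p under 0.05 it gave 2 members, LIPG and VLDLR, where 8.68% of all genes did so. The DESeq2 Wald test called 0 members against a background of 1.51% of genes, and gave no p for LIPG. limma-voom also called 0 members, with 0% of genes called. Without naive replicate 1, edgeR again called 0 members and 0% of genes, and DESeq2 called 0 members and 1.76% of genes. Log2 fold changes, post-MI over naive, were negative for 5 of the 7 members with a median of -0.34, beside 52.1% negative and a median of -0.01 over all genes. Without naive replicate 1 they were negative for 3 of the 7, with a median of 0.42, beside 49.4% and 0.00 over all genes.

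Among the lipases, LIPG, which acts mainly on phospholipids of high density lipoproteins, had 29, 30 and 55 counts in post-MI replicates 1, 2 and 3, against 1553, 101 and 115 counts in naive replicates 1, 2 and 3. These counts correspond to 1.55, 2.05 and 3.18 CPM with post-MI plasma and to 77.7, 5.85 and 5.40 CPM with naive plasma. Every post-MI library lay below every naive library, while naive replicate 1 was 13.3-fold above the next highest library. Only 4 of the 14326 genes tested had a ratio that large, LIPG included. The means were 2.26 ± 0.831 CPM with post-MI plasma and 29.7 ± 41.6 CPM with naive plasma (SD, n = 3 each), and edgeR put the log2 fold change at -3.71 ± 1.13 (SE, adjusted p = 0.521).

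Without naive replicate 1 the naive mean of LIPG was 5.63 CPM over 2 libraries, and its log2 fold change was -1.31 ± 0.34 (SE, edgeR adjusted p = 0.357). The estimate was thus smaller and its error smaller as well. DESeq2 gave an adjusted p of 0.0680 in that comparison, a fit chosen after seeing the data. LIPG was the 1 member of 7 whose groups did not overlap, lower with post-MI plasma, as were 7.82% of all genes, and 0 members lay higher in all 3 post-MI libraries, as did 8.32% of all genes. Groups that do not overlap stay apart when a library is left out, so the same for LIPG without naive replicate 1, where 24.8% of all genes did not overlap in either direction, adds nothing to this.

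LPL, the lipase that clears triglyceride-rich lipoproteins, had 0 counts in all 6 libraries. The floor taken for a count of 0 was 3 counts per library, equal to 0.141 to 0.205 CPM, and the exact (Clopper-Pearson) 95% interval reached 0.173 to 0.252 CPM. Both cover counting error alone. Whether the counted annotation covers the sheep LPL transcript was not tested.

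ANGPTL4, a secreted inhibitor of LPL, was at 186, 124 and 66.5 CPM in post-MI replicates 1, 2 and 3, against 348, 78.6 and 48.6 CPM in naive replicates 1, 2 and 3. The groups overlapped, with naive replicate 1 at the top and naive replicates 2 and 3 among the 3 lowest libraries. The means were 125 ± 60.0 CPM with post-MI plasma and 158 ± 165 CPM with naive plasma (SD, n = 3 each), and edgeR put the log2 fold change at -0.34 ± 0.73 (SE, adjusted p = 0.90). Without naive replicate 1 the sign turned, and edgeR put the log2 fold change at 0.995 ± 0.43 (SE, adjusted p = 0.622), and post-MI replicate 3 still lay below naive replicate 2. The sign of the edgeR fold change of ANGPTL4 thus depended on 1 library. With all libraries it was also positive in limma-voom, at 0.0668, and with a replicate block, at 0.0741.

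Among the lipoprotein receptors, SCARB1, a receptor for high density lipoproteins, varied least. It was at 25.0, 25.3 and 39.2 CPM in post-MI replicates 1, 2 and 3, against 42.0, 26.4 and 36.6 CPM in naive replicates 1, 2 and 3. The range over the 6 libraries was 1.68-fold and the groups overlapped through post-MI replicate 3. The log2 fold change was -0.23 ± 0.25 (SE, edgeR adjusted p = 0.776), or -0.07 ± 0.25 when naive replicate 1 was left out.

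OLR1, also called LOX-1, takes up oxidised low density lipoprotein in endothelial cells. It was at 64.5, 28.6 and 47.0 CPM in post-MI replicates 1, 2 and 3, against 281, 54.8 and 16.0 CPM in naive replicates 1, 2 and 3. The naive libraries held both the highest and the lowest value, 17.5-fold apart, while the post-MI libraries spanned 2.26-fold. The means were 46.7 ± 18.0 CPM with post-MI plasma and 117 ± 143 CPM with naive plasma (SD, n = 3 each), and the log2 fold change was -1.33 ± 0.91 (SE, edgeR adjusted p = 0.655). Without naive replicate 1 it was 0.42 ± 0.53 (SE, edgeR adjusted p = 0.846), the opposite sign. With all libraries, limma-voom put it at -0.50.

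VLDLR, a receptor that binds triglyceride-rich lipoproteins, was at 14.2, 9.63 and 17.7 CPM in post-MI replicates 1, 2 and 3, against 163, 39.2 and 10.8 CPM in naive replicates 1, 2 and 3. Naive replicates 1 and 2 were the 2 highest libraries, and naive replicate 3 lay within the post-MI range. The means were 13.9 ± 4.06 CPM with post-MI plasma and 70.9 ± 80.8 CPM with naive plasma (SD, n = 3 each), and edgeR put the log2 fold change at -2.35 ± 0.88 (SE, adjusted p = 0.561). Without naive replicate 1 it was -0.83 ± 0.50 (SE, edgeR adjusted p = 0.698). Without naive replicate 3 the log2 fold change of VLDLR was -2.86 (edgeR adjusted p = 0.399). Its groups then did not overlap, as for 28.9% of all genes in either direction. That library was the only naive one within the post-MI range, so this separation was fixed in advance.

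The fatty acid carriers FABP4 and FABP5 had the opposite sign to LIPG. FABP4 was at 21.4, 28.4 and 4.21 CPM in post-MI replicates 1, 2 and 3, against 3.70, 0.753 and 8.22 CPM in naive replicates 1, 2 and 3. Post-MI replicates 1 and 2 lay above every naive library and post-MI replicate 3 lay inside the naive range. The lowest value rests on 13 counts in naive replicate 2, with an exact (Clopper-Pearson) 95% interval of 0.401 to 1.29 CPM for counting error. The means were 18.0 ± 12.5 CPM with post-MI plasma and 4.23 ± 3.76 CPM with naive plasma (SD, n = 3 each), and edgeR put the log2 fold change at 2.08 ± 0.89 (SE, adjusted p = 0.566). Naive replicate 1 was not extreme here, and without it the log2 fold change was 1.98 ± 1.02 (SE, edgeR adjusted p = 0.676).

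FABP5 was at 79.6, 121 and 25.5 CPM in post-MI replicates 1, 2 and 3, against 34.8, 19.8 and 45.9 CPM in naive replicates 1, 2 and 3. As for FABP4, the 3 highest libraries were post-MI replicates 2 and 1 and naive replicate 3, in that order, and the lowest was naive replicate 2. The means were 75.5 ± 48.1 CPM with post-MI plasma and 33.5 ± 13.1 CPM with naive plasma (SD, n = 3 each), and edgeR put the log2 fold change at 1.17 ± 0.55 (SE, adjusted p = 0.570), or 1.21 ± 0.65 when naive replicate 1 was left out. FABP4 and FABP5 lie on the same chromosome with 2 annotated genes between them in the RefSeq annotation of ARS-UI_Ramb_v3.0.

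Post-MI replicate 3, the library with high MX2, was the lowest post-MI library for both carriers. Without it the log2 fold changes were 2.55 ± 0.78 for FABP4 (SE, edgeR adjusted p = 0.413) and 1.59 ± 0.37 for FABP5 (SE, edgeR adjusted p = 0.354). The groups of 4 of the 7 members then did not overlap, beside 32.0% of all genes in either direction. Of these, 2 were higher with post-MI plasma (FABP4 and FABP5) and 2 lower (SCARB1 and LIPG). LIPG was apart already, and the other members named had overlapped only through post-MI replicate 3, so their separation without it was fixed in advance. Without post-MI replicate 2, the highest library for both, the log2 fold change of FABP5 was 0.65. Without naive replicate 3, 3 of the 7 did not overlap (LIPG and VLDLR lower, FABP4 higher with post-MI plasma), beside 28.9% of all genes. Leaving out a library can only keep or raise such a count, so neither count is a test. The part of the MX2 difference in the FABP4 and FABP5 values was not tested.

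**Figure D2:**
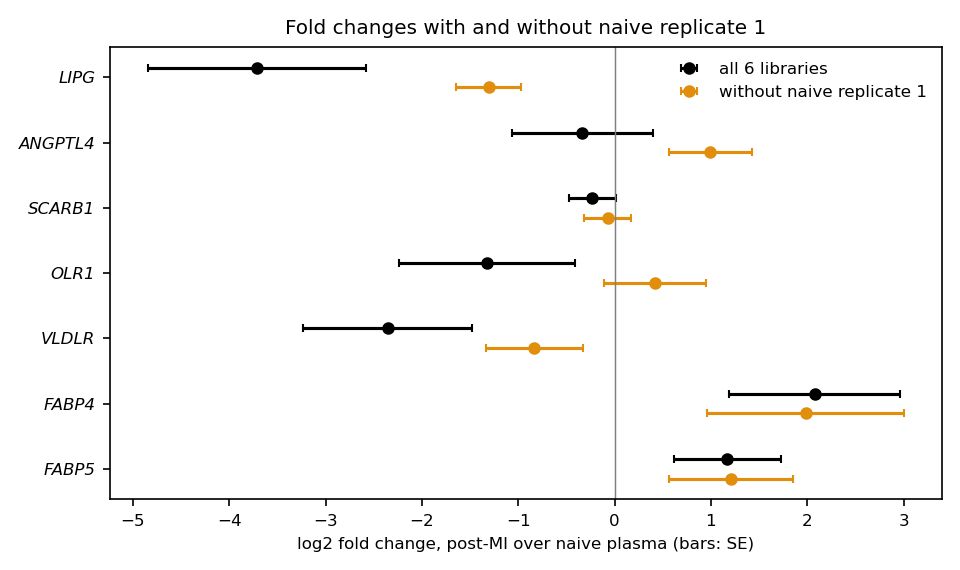
Log2 fold change of each member with counts, post-MI over naive plasma, from edgeR with all 6 libraries (black) and without naive replicate 1 (orange), with SE as bars. LIPG moves to -1.31 and VLDLR to -0.83 without that library, OLR1 and ANGPTL4 cross 0, and FABP4 and FABP5 stay at 1.98 and 1.21.

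The members varied more between libraries of the same group than most genes. Within the post-MI group FABP4 and FABP5 had the largest SDs of log2 CPM of the 7, 1.47 and 1.16, beside a median of 0.19 over all genes tested. Within the naive group the SD was 2.17 for LIPG, 2.07 for OLR1, 1.95 for VLDLR, 1.66 for FABP4 and 1.48 for ANGPTL4, beside a median of 0.27. SCARB1, with 0.37 in the post-MI and 0.34 in the naive group, was closest to these medians.

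Naive replicate 1 was the highest library for 5 of the 7 members (LIPG, ANGPTL4, SCARB1, OLR1 and VLDLR), beside 28.8% of all genes tested. It was more than 2-fold above the next library for LIPG, OLR1 and VLDLR, beside 2.07% of all genes tested. The ratio to the next library was 4.36 for OLR1, 4.15 for VLDLR, 1.86 for ANGPTL4 and 1.07 for SCARB1. In the same library, 15 of 16 genes of a hypoxia and oxidative stress list were at their highest, 11 of them more than 2-fold above the next library. That list was put together from genes already known to be high there. HIF1A, which encodes a subunit of the hypoxia-inducible factor, was at 760 CPM in naive replicate 1 and at 157 to 206 CPM in the other 5 libraries. The part of these genes in the levels of LIPG, OLR1, VLDLR and ANGPTL4 was not tested.

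The likeness of 2 genes was measured as the mean absolute difference of their log2 CPM over the 6 libraries, each centred on its own mean. The closest genes were sought among 9090 genes whose average log2 CPM reached 3, with the members and genes under provisional names left out. This is a description over 6 libraries, and naive replicate 1 weighs on it. Closest to LIPG were PTGS2, an inducible prostaglandin synthase, at 0.27, and GAS7 at 0.36. Closest to OLR1 were ARRDC4 at 0.35 and the cytokine IL6 at 0.36, and closest to VLDLR were C7H15orf48 at 0.40 and the uridine phosphorylase UPP1 at 0.42. The table also holds a row C15orf48, so reads of C7H15orf48 may be shared with it. ANGPTL4 lay closest to CD200 at 0.26 and TLL1 at 0.28.

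Closest to FABP4 were the endothelial lectin CLEC1A at 0.52 and the water channel AQP1 at 0.77, both larger distances than for any other member. Closest to FABP5 were the endothelial guidance receptor ROBO4 at 0.23 and SH3TC1 at 0.27. SCARB1 lay closest to ZSWIM6 at 0.06 and to LRP1, a large endocytic lipoprotein receptor, at 0.07. These distances are not scaled by a gene's own spread, which was large for FABP4 and smallest for SCARB1. They therefore do not rank the members by how alike other genes are to them. Among the 21 pairs of members the smallest distances were 0.55 between OLR1 and VLDLR, 0.65 between OLR1 and ANGPTL4, 0.71 between LIPG and VLDLR and 0.71 between FABP4 and FABP5, and the largest was 2.52 between LIPG and FABP4.

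**Figure D3:**
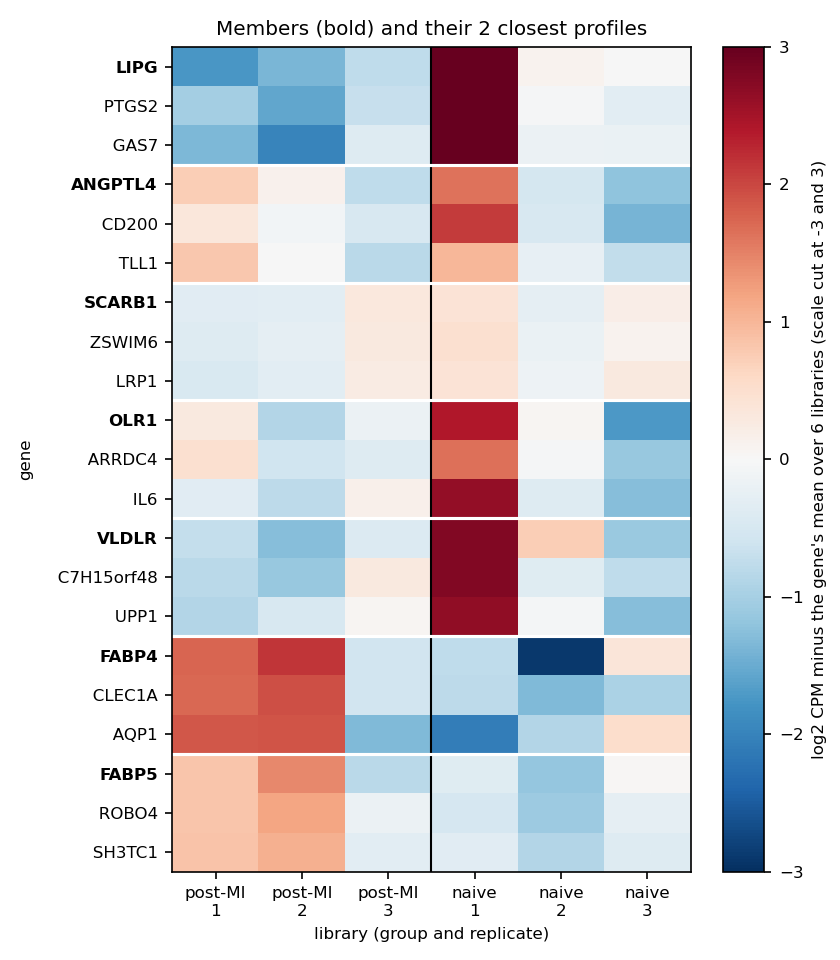
Centred log2 CPM (colour, blue below and red above the gene's mean over the 6 libraries, scale limited to -3 and 3) of the 7 members with counts (bold) and the 2 genes closest to each, in post-MI libraries (left of the line) and naive libraries (right). The LIPG, OLR1 and VLDLR rows are dark red in naive replicate 1, and the FABP4 and FABP5 rows are red in post-MI replicates 1 and 2.

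Around the members, 7 lists of lipid genes held 121 genes, of which 87 were tested. edgeR called 0 of the 87 over all genes, with 5 at an unadjusted p under 0.05 (5.75%, beside 8.68% of all genes). The unadjusted share was 9.09% with edgeR without naive replicate 1, beside 8.1% of all genes. With DESeq2 it was 10% of the 90 listed genes with an adjusted p. The DESeq2 share of 8.54% over all genes also covers genes without an adjusted p, so these DESeq2 shares cannot be compared. limma-voom called 0, and DESeq2 called 2 of 90, FOXO1 and LRP8, beside 1.51% of all genes. Of the 87 genes, 44 had a negative log2 fold change, with a median of -0.00. The groups of HSPG2, ACADS, PPARD and FOXO1 did not overlap, higher with post-MI plasma, as did 8.32% of all genes. Those of LRP8, CIDEA and SREBF1 did not overlap, lower with post-MI plasma, as did 7.82% of all genes. The other tested genes of these lists overlapped between the groups.

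In the list of lipase processing and regulators, 9 of 15 genes were tested, 4 positive and 5 negative, with a median log2 fold change of -0.00, and -0.09 without naive replicate 1. HSPG2, the heparan sulfate proteoglycan perlecan, was at 5420, 5394 and 4093 CPM in post-MI replicates 1, 2 and 3, against 1309, 3461 and 2940 CPM in naive replicates 1, 2 and 3. Its groups did not overlap, and the log2 fold change was 0.95 ± 0.36 (SE, edgeR adjusted p = 0.566), or 0.65 when naive replicate 1 was left out. SDC4, a cell surface proteoglycan, averaged 8.86 ± 2.66 CPM with post-MI plasma and 19.0 ± 11.8 CPM with naive plasma (SD, n = 3 each). Naive replicate 1 was its highest library, at 32.6 CPM, and the log2 fold change of SDC4 was -1.10 ± 0.44 (SE), or -0.45 when that library was left out. LMF1, which matures lipases in the endoplasmic reticulum, gave a log2 fold change of 0.48 ± 0.36 and PCSK6, a protease that can cleave LIPG, 0.77 ± 0.60 (SE). LMF1 was at 0.18 and PCSK6 at 0.30 without naive replicate 1.

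Among other lipoprotein receptors and transcytosis genes, 11 of 16 were tested, 6 positive and 5 negative, with a median log2 fold change of 0.33, and 0.06 without naive replicate 1. LRP8, a close relative of VLDLR, was at 11.3, 15.2 and 21.8 CPM in post-MI replicates 1, 2 and 3, against 49.9, 32.7 and 51.9 CPM in naive replicates 1, 2 and 3. Its groups did not overlap, naive replicate 1 was not extreme, and the log2 fold change was -1.48 ± 0.29 (SE, edgeR adjusted p = 0.30), or -1.39 when naive replicate 1 was left out. DESeq2 called LRP8 with an adjusted p of 0.000816. The scavenger receptors STAB1 and SCARF1 gave log2 fold changes of 0.73 ± 0.31 and 0.39 ± 0.18, and ACVRL1, a receptor that also carries low density lipoprotein across endothelium, 0.47 ± 0.26 (SE), or 0.71 when naive replicate 1 was left out.

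Of 24 fatty acid transport and activation genes, 16 were tested, 5 positive and 11 negative, with a median log2 fold change of -0.17, and -0.02 without naive replicate 1. MFSD2A, a lipid transporter known from brain endothelium, gave -0.86 ± 0.48, the growth factor receptor FLT1 -0.23 ± 0.17, the secreted peptide APLN 0.80 ± 0.60 and the acyl-CoA synthetase ACSL5 -0.34 ± 0.28 (SE). MFSD2A was at -0.57, FLT1 at -0.13 and APLN at 0.34 without naive replicate 1. None of these groups separated with all libraries. FABP1, SLC27A6 and APLNR had 0 counts in every library.

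Of 17 lipid droplet and lipolysis genes, 9 were tested, 5 positive and 4 negative, with a median log2 fold change of 0.00. PLIN2, a coat protein of lipid droplets, was at 312, 368 and 290 CPM in post-MI replicates 1, 2 and 3, against 745, 198 and 202 CPM in naive replicates 1, 2 and 3. As for ANGPTL4, naive replicate 1 was the highest library and the sign turned without it, to a log2 fold change of 0.70 against -0.24 ± 0.51 (SE) with all libraries (edgeR adjusted p = 0.241 without naive replicate 1 and 0.899 with all libraries). DESeq2 called PLIN2 higher with post-MI plasma when naive replicate 1 was left out, with an adjusted p of 0.00419, and gave 0.948 with all libraries. The fit without that library was chosen after seeing the data, had 2 naive libraries and called 1.76% of all genes. CIDEA gave -0.84 ± 0.37, HILPDA -0.27 ± 0.25 and ABHD5, which activates a triglyceride lipase, 0.19 ± 0.19 (SE). HILPDA was at -0.11 without naive replicate 1.

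Of 22 fatty acid oxidation genes, 20 were tested, 12 positive and 8 negative, with a median log2 fold change of 0.07. PDK4, a kinase that shifts cells from glucose to fatty acid oxidation, was at 76.1, 94.1 and 44.5 CPM in post-MI replicates 1, 2 and 3, against 12.3, 23.7 and 48.6 CPM in naive replicates 1, 2 and 3. Its 4 highest libraries came in the same order as those of FABP4, and the log2 fold change was 1.34 ± 0.50 (SE, edgeR adjusted p = 0.563), or 0.99 when naive replicate 1 was left out. ACADS gave 0.33 ± 0.17 and ECI1 0.22 ± 0.19 (SE), and ACADS was at 0.21 without naive replicate 1.

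Of 17 PPAR, LXR and endothelial fatty acid regulators, 14 were tested, 6 positive and 8 negative, with a median log2 fold change of -0.17. FOXO1, a transcription factor of endothelial metabolism, was at 150, 141 and 140 CPM in post-MI replicates 1, 2 and 3, against 86.0, 109 and 91.8 CPM in naive replicates 1, 2 and 3. Its groups did not overlap, and the log2 fold change was 0.59 ± 0.14 (SE, edgeR adjusted p = 0.372), or 0.53 when naive replicate 1 was left out. DESeq2 called FOXO1 with an adjusted p of 0.0234. PPARD, a nuclear receptor for fatty acids, gave 0.52 ± 0.24 and the lipid synthesis factor SREBF1 -0.68 ± 0.30 (SE), and neither overlapped between the groups. PPARD was at 0.29 and SREBF1 at -0.39 without naive replicate 1. HIF1A gave -1.14 ± 0.54 (SE), and -0.16 without naive replicate 1.

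Of 10 cholesterol efflux genes, 8 were tested, 5 positive and 3 negative, with a median log2 fold change of 0.16, and -0.02 without naive replicate 1. APOA1, the main protein of high density lipoprotein, gave 1.01 ± 0.60 (SE), and 0.55 without naive replicate 1, where it was at 156 CPM against 844 to 1681 CPM in the other 5 libraries. CYP7B1 gave 0.52 ± 0.32, NPC1 -0.27 ± 0.17 and CYP27A1 0.43 ± 0.27 (SE), and CYP27A1 was at 0.18 without naive replicate 1.

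In the hypoxia and oxidative stress list, 15 of 16 log2 fold changes were negative, with a median of -1.50, and -0.54 without naive replicate 1. edgeR called 0 of the 16 and gave 12 at an unadjusted p under 0.05, limma-voom called 0 and DESeq2 called 5, where 8.68% of all genes passed the unadjusted and 1.51% the DESeq2 threshold. Of the 16, 6 were at an unadjusted edgeR p under 0.05 without naive replicate 1, beside 8.1% of all genes. The list was chosen for genes high in naive replicate 1 of these data. Its signs and counts were thus partly fixed in advance, and their distance from the shares over all genes is no test. SRXN1 gave -1.80 ± 0.34, SLC7A11 -1.85 ± 0.37, NQO1 -3.02 ± 0.73 and TXNRD1 -1.20 ± 0.31 (SE). Without naive replicate 1, SRXN1 was at -1.58, SLC7A11 at -1.41, NQO1 at -2.35 and TXNRD1 at -1.06.

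**Figure D4:**
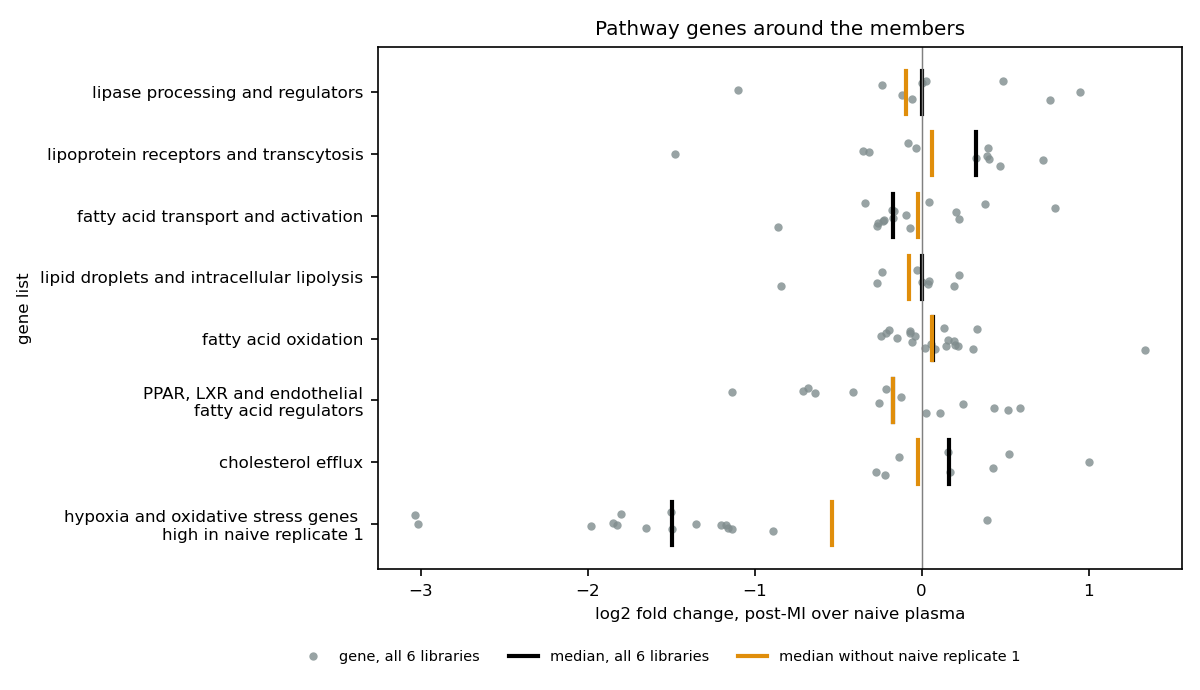
Log2 fold change, post-MI over naive plasma, of each tested gene (grey points) in 7 lists of lipid genes and a hypoxia and oxidative stress list, with the median over all 6 libraries (black) and without naive replicate 1 (orange). The medians of the lipid lists lie between -0.17 and 0.33, and that of the last list at -1.50 moves to -0.54. Genes of the last list were chosen as high in naive replicate 1 of these data.

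Other cell types that carry these genes were looked for by their markers. Adipocytes are rich in FABP4 and LPL. Of 6 adipocyte markers in the table, ADIPOQ and PLIN1 had at most 3 counts in every library. CIDEC had at most 8 and LEP at most 22 counts in any library. LIPE was at 1.85 to 3.18 CPM and CIDEA at 0.82 to 2.16 CPM over the 6 libraries. The sums of the 6 markers were 3.70 to 5.05 CPM with post-MI plasma and 4.20 to 5.64 CPM with naive plasma. Macrophages also carry FABP4 and OLR1. Of 10 macrophage and leukocyte markers, MARCO had 0 counts and CD79A at most 3 counts in every library, PTPRC was at 0.141 to 1.33 CPM, and the sums were 35.9 to 42.5 CPM with post-MI plasma and 36.2 to 59.6 CPM with naive plasma, the highest being naive replicate 1. CD14 was at 22.6 to 41.4 CPM and CD68 at 6.87 to 13.0 CPM over the 6 libraries.

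Of 6 microvascular markers, CA4 had at most 2 counts in every library, while KDR was at 22.9 to 82.8 CPM, RGCC at 6.95 to 11.1 CPM and MFSD2A at 1.84 to 9.01 CPM. The sums were 50.3 to 73.1 CPM with post-MI plasma and 39.4 to 101 CPM with naive plasma, the highest being naive replicate 1. Of 5 lymphatic endothelial markers, FLT4 and CCL21 had at most 3 counts and LYVE1 at most 4 counts in every library, while PROX1 was at 4.15 to 12.3 CPM and PDPN at 0.322 to 19.1 CPM, with its highest level in naive replicate 1. The sums were 9.53 to 12.8 CPM with post-MI plasma and 7.99 to 23.3 CPM with naive plasma, the highest again being naive replicate 1. In these bulk libraries, fewer cells of a type and less RNA per cell cannot be told apart. The part of other cell types in the FABP4, FABP5 and OLR1 values was not tested.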

How the data were processed

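RNA from 6 samples of sheep mitral valve endothelial cells was sequenced as stranded mRNA, paired-end 150 bp libraries, per the labels' protocols. The authors deposited 1 table of raw counts per gene, and per sample a normalized signal that equals those counts divided by 1 factor per library (100% of values above 0 in both within 0.01%, with 1 gene of naive replicate 1 above 0 in only 1 of them). Only the counts were tested. The tools listed are STAR 2.5.2b, SAMtools 1.9, featureCounts 2.0.0, MultiQC 1.5, FastQC and DESeq2 1.26.0 with the build Oar_v3.1, per the submitters' processing notes, while annotation and strand setting are not given in sources used here.

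Counts were fitted with edgeR 4.0.16 in R 4.3.3 (filterByExpr with a count minimum of 10 and a total of 15, TMM, quasi-likelihood test, Benjamini-Hochberg at 0.05 over 14326 genes), without a replicate term. DESeq2 1.42.0, limma 3.58.1 (voom), other scaling and filters, a replicate block and leaving out each library were alternatives. The script was tested on simulated data. The SE of an edgeR log2 fold change was derived as its absolute value divided by the square root of the quasi-likelihood F statistic. CPM are counts relative to the TMM-scaled library size. Exact intervals and the floor of 3 counts cover counting error only.

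The members and lists were chosen with earlier results of these data known. Named beside the members are up to 4 genes per list with the smallest edgeR p and the 2 closest profiles per member. Some genes that this rule names are not reported here. MX2, genes listed at 0 and single markers were named after their values were seen.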

Additional observations from a re-analysis of the deposited data

How the results depend on the processing

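Over all genes edgeR called 0, also without any 1 library, while DESeq2 called 221 with all libraries and 252 without naive replicate 1 (an alternative chosen after seeing the data). ANGPTL4, at -0.34, turned sign to 0.0668 with limma-voom, 0.0741 with a replicate block and 0.99 with DESeq2 without naive replicate 1, and lay between -0.76 and 0.995 when each library was left out. OLR1, at -1.33, was -0.50 with limma-voom and -0.57 with a replicate block, turned to 0.41 with DESeq2 without naive replicate 1 and lay between -1.85 and 0.42 when each library was left out. When each library was left out, the number of members without overlap was 1 to 4, which can only keep or raise the count of 1, and the median over the members was -0.76 to 0.42. List medians then ranged from -0.17 to 0.15 for lipase processing, from -0.0751 to 0.0789 for lipid droplets, from -0.24 to 0.0232 for PPAR and LXR regulators and from -0.0195 to 0.27 for cholesterol efflux. The cause of these shifts was not tested. LIPG, VLDLR and SCARB1 stayed negative and FABP4 and FABP5 positive under every alternative run, and 0 members were called in any of them. Deviations of same-numbered libraries from their group means correlated at 0.15, -0.11 and 0.09. With 3 libraries a group these values cannot decide if the numbers pair the samples, and the labels do not say. The replicate block called 0 genes and gave -2.53 for LIPG and -1.68 for VLDLR, and limma-voom gave -2.65 for LIPG and -1.59 for VLDLR. Depth limits the upper bound on LPL and the precision of the lowest FABP4 value, and annotation of LPL was not tested. With 3 libraries a group, every comparison is limited.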
